A study of Mus musculus with 5 samples.

Results

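The acinar cells that remained in advanced pancreatic tumours of KPPC and KPPCN mice numbered 124 of 17771 cells, and are called members here. They were chosen by measured values. A cell was a member when the UMIs (unique molecular identifiers, 1 per captured transcript) of Ctrb1, Cpa1, Cela2a, Cela3b, Prss2 and Pnlip summed to at least 300 per 10000 UMIs of the cell (the acinar sum), and those of the islet hormone genes Ins1, Ins2 and Iapp to under 500. The level of these 6 genes in members is therefore a description. Tumours of mice aged 7 to 8 weeks were dissociated, depleted of dead cells and of CD45+ cells, and profiled with droplet 3′ RNA libraries. The libraries used were 3 of KPPC tumours, coded C3, D3 and H2, and 2 of KPPCN tumours, numbered 1 and 2. The labels name no treatment and no alleles. In the published use of these names, both genotypes lack Trp53 in cells in which a Pdx1-driven Cre was active, and KPPCN mice also lack Nsdhl, an enzyme of cholesterol synthesis, in those cells. Pdx1-driven Cre acts in pancreatic progenitors, so acinar cells can carry these alleles in both genotypes.

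Acinar cells make the digestive enzymes of the pancreas, store most of them as inactive zymogens in granules and release them into the ducts. Their program is held by the PTF1 complex (PTF1A with an E-protein and RBPJL), NR5A2 and BHLHA15. After injury, acinar cells can lose zymogen expression and switch on duct genes such as Krt19 and Sox9, a change called acinar-to-ductal metaplasia. Reg proteins and clusterin (Clu) are known from inflamed exocrine pancreas.

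Promoters of acinar enzyme genes are known for PTF1 sites, in which an E-box and a TC-box lie near each other. The 250 bases before the start site are shown for Prss2 and Cpa1, which helped choose the members in every library, and for Cela1, which all libraries list and the rule did not use. They come from RefSeq on GRCm38.p6, 5′ to 3′ on the gene's strand, with the letters CACCTG (E-box) and TTTCCC (TC-box) in capitals, searched on both strands.

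Prss2, chr6:41521526-41521775, plus strand: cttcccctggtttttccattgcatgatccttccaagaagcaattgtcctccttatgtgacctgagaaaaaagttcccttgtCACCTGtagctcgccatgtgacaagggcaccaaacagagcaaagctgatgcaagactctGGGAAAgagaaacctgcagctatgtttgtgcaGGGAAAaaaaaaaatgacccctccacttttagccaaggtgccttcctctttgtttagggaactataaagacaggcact

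Cela1, chr15:100687921-100688170, minus strand: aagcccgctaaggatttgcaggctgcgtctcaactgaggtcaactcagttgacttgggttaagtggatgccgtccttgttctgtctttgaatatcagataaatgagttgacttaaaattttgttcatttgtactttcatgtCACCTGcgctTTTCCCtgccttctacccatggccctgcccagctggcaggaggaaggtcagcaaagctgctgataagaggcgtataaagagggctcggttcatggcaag

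Cpa1, chr6:30638968-30639217, plus strand: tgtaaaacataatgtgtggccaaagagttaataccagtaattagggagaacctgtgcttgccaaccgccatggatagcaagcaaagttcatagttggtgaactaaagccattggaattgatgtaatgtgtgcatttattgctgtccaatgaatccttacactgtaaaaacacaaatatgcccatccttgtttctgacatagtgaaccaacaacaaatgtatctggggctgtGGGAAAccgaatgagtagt

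In Prss2 the E-box letters began at -169 from the start site and the TC-box letters at -110 and -78. In Cela1 they began at -109 and -99, nearer to each other than in Prss2. Cpa1 held the TC-box letters at -19 and no match to the E-box letters in this window. Of 31 enzyme genes (serine proteases, carboxypeptidases, lipases, amylases and nucleases), 26 had a promoter in the table. The E-box letters lay in 13 of the 26 (50%), against 17.2% of 32851 promoters of the same length. The TC-box letters lay in 8 (30.8%), against 21.9% of all promoters. Both motifs lay in 6 (23.1%), against 3.61%, and these genes were Cel, Cela1, Cela2a, Cela3a, Prss1 and Prss2. A match describes letters, not a bound site.

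Members were found in each library, in unequal numbers. They were 26 of 3777 cells in C3 (0.688%, exact 95% binomial interval 0.450 to 1.01%), 5 of 3282 in D3 (0.152%, 0.0495 to 0.355%) and 65 of 2515 in H2 (2.58%, 2.00 to 3.28%). KPPCN 1 held 15 of 6111 (0.245%, 0.137 to 0.405%) and KPPCN 2 held 13 of 2086 (0.623%, 0.332 to 1.06%). H2 held more members than the other 4 libraries together, and the shares of C3 and D3 lay on either side of both KPPCN libraries. The mean share was 1.14 ± 1.28% (SD, n = 3) in KPPC and 0.434 ± 0.267% (SD, n = 2) in KPPCN. The difference of -0.707 percentage points was within the spread between libraries (two-sided exact permutation test, p = 0.8; the smallest p this design allows is 0.1). Without H2 the difference was 0.0140 points. Intervals cover counting error only. Acinar tissue in the piece of tumour taken and acinar cells that survived dissociation cannot be told apart in these shares.

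**Figure D1:**
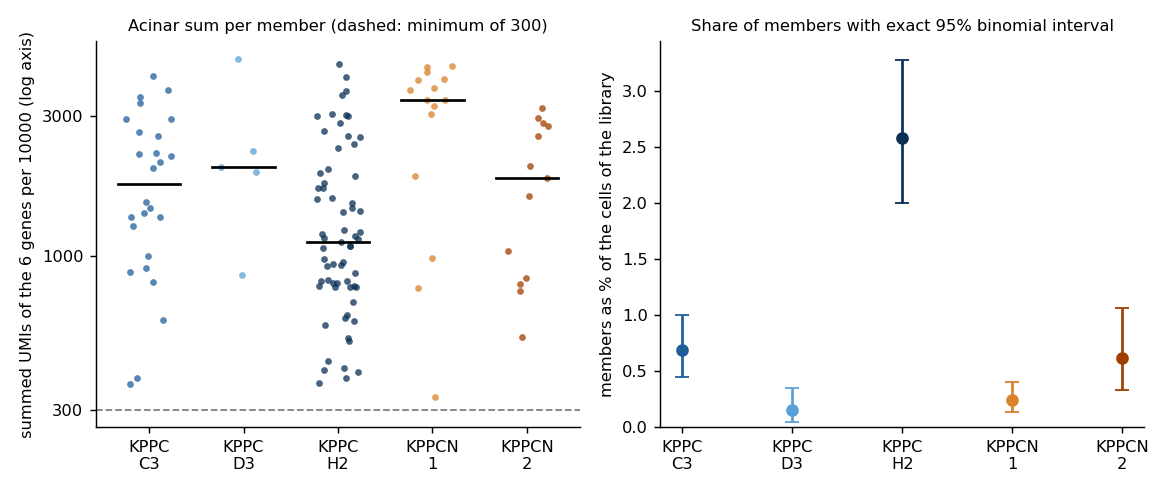
Left, acinar sum of each member (UMIs of the 6 genes per 10000, log axis) by library, with the library's median as a line and the minimum of 300 dashed. Right, members as a percentage of all cells of the library with exact 95% binomial intervals, 2.58% in H2 and 0.152 to 0.688% in the other libraries.

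Few cells lay near the minimum, but it did not fall in a gap of the distribution. Of all cells, 35 had an acinar sum of 50 to 100, 11 of 100 to 200, 10 of 200 to 300 and 5 of 300 to 400. A further 38 lay between 400 and 1000, 34 between 1000 and 2000, 23 between 2000 and 3000 and 24 between 3000 and 5000. The members nearest to the minimum had 331, 367 and 371 UMIs per 10000, and the nearest cells outside had 288 and 282, both of H2. The median acinar sum of members was 1766, 2005, 1122, 3412 and 1846 in C3, D3, H2, KPPCN 1 and KPPCN 2, the order used for every series of 5 values here. The hormone limit removed 0 cells, and the highest hormone sum in a member was 2.33 per 10000. Of 27 barcodes that occurred in more than 1 library, 0 belonged to members.

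Depth and gene coverage set what can be compared. The median member held 24738, 11823, 18620, 2644 and 10417 UMIs and 3430, 2650, 3456, 510 and 1228 genes. Of the members of KPPCN 1, 8 of 15 had 500 genes or more, against all members of the KPPC libraries and 12 of 13 in KPPCN 2. The KPPC libraries listed 11543 to 12304 genes, each found in at least 37 cells of its library, whereas the KPPCN libraries listed 19658 and 20055 genes, down to genes of 1 cell. Genes of a rare cell type can therefore be missing from KPPC. Of the 31 enzyme genes, 13, 6, 11, 26 and 27 were listed. Cela2a and Pnlip were not listed in any KPPC library, and Cela3b not in D3, which is no measurement of 0. With Ctrb1, Cpa1 and Prss2 alone, 123 cells passed the minimum.

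The markers of the acinar label are genes of the rule, so their level in members follows from the choice and does not check the label. Levels are given in CPM, UMIs scaled to a total of 1e+06 over the summed members of a library, so that deep cells weigh more; they are not divided by transcript length. Ctrb1, which encodes chymotrypsinogen B, was carried by all 124 members, at 133468, 143332, 82819.7, 155323 and 95694 CPM. Prss2, an anionic trypsinogen, was at 36950.2, 31069, 25188, 48449.8 and 37556 CPM, in all members but 1 of H2. Cpa1, carboxypeptidase A1, was at 10197, 20076, 6926, 25351 and 10453 CPM. H2 was the lowest library and KPPCN 1 the highest for each of these 3 genes. The elastase genes Cela2a (11241 and 5881 CPM in KPPCN 1 and KPPCN 2) and Cela3b (23232 and 7117 CPM) and the lipase gene Pnlip (19980.3 and 940.3 CPM) were higher in KPPCN 1 too. Pnlip was carried by 15 of 15 members of KPPCN 1 and 6 of 13 of KPPCN 2. Cela3b was at 5564 and 2335 CPM in C3 and H2.

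Other enzyme genes, which the rule did not read, were present in the same cells, though any gene of a member can follow from its choice. Try5, a trypsinogen, was at 25617, 17859, 24950.4 and 25007 CPM in C3, H2, KPPCN 1 and KPPCN 2, and Try4 at 4744, 21415 and 7885 CPM in C3 and both KPPCN libraries. These trypsinogens are close copies of each other, so the split of their reads is uncertain. Cpb1, carboxypeptidase B1, was at 5276, 10657 and 6511 CPM in those 3 libraries. Clps, the colipase that anchors lipase on fat droplets, was at 8259.7, 11317, 3468, 37759 and 21632 CPM, lowest in H2 and highest in KPPCN 1. Pnliprp1, a lipase-related protein, was at 11624, 4285, 20981 and 8955 CPM without D3, and Rnase1, the secreted ribonuclease, at 3028, 1311, 16061 and 3231 CPM. Cel, bile salt-activated lipase, was at 5567, 2065, 5704 and 6620.5 CPM in the same 4 libraries. Cela1 was at 899, 731, 953, 12825 and 2568 CPM, with the KPPC libraries close together and both KPPCN libraries above them. Few amylase UMIs were counted in the KPPCN members, and the highest level was 50.03 CPM for Amy2a5 in KPPCN 1. The KPPC libraries listed no amylase gene, so amylase was not measured there. The amylase copies are near-identical, so these counts are uncertain and do not show that amylase RNA was scarce.

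The share of all 31 enzyme genes in member UMIs was 25.2, 20.7, 14.8, 44.9 and 24.7%. Over the 6 genes listed by every library (Prss2, Ctrb1, Cela1, Cpa1, Pnliprp2 and Clps) it was 19.1, 20.7, 12.0, 28.2 and 16.9%, and the genotypes overlapped. Single members of H2 ranged from 3.84 to 61.3% enzyme UMIs, and those of KPPCN 1 from 6.31 to 73.0%. In the other cells the enzyme genes made up 0.0145, 0.00860, 0.0313, 0.0330 and 0.0111% of UMIs.

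**Figure D2:**
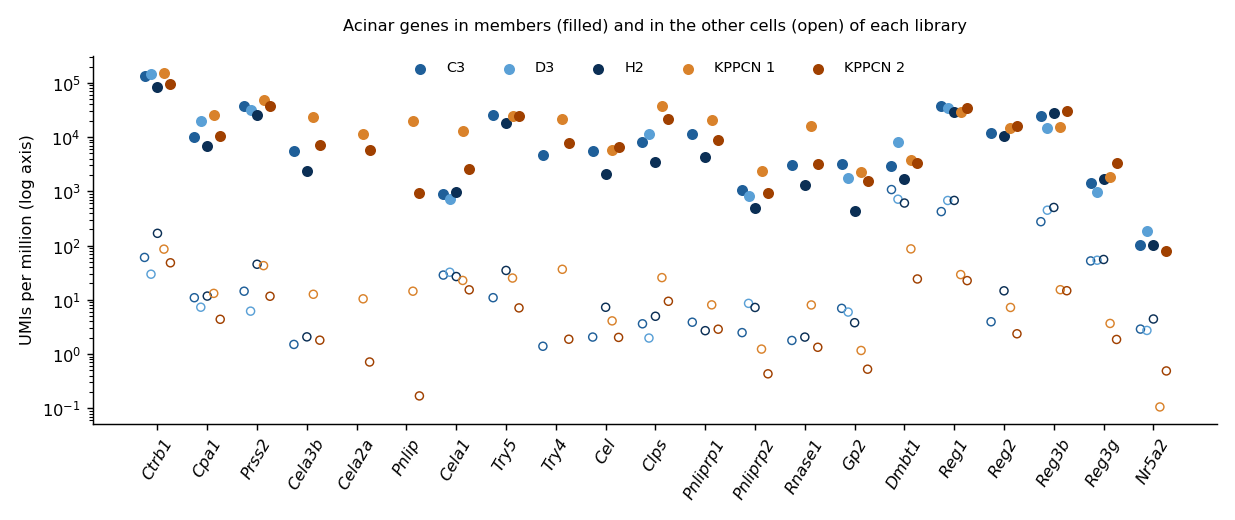
CPM (log axis) of acinar genes in the summed members (filled) and in all other cells (open) of each library; a library that does not list a gene, or has no UMI, has no point. Ctrb1 lies between 82819.7 and 155323 in members and between 29.7 and 168 in the other cells.

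Granule and protective genes accompanied the enzymes. Gp2, the major glycoprotein of the zymogen granule membrane, was at 3164, 1778, 433, 2235 and 1579.9 CPM, and Dmbt1, a secreted mucosal defence protein, at 2953, 8284, 1677, 3736 and 3369.9 CPM. Sycn, syncollin of the granule, was at 1479, 10574 and 2325 CPM in H2, KPPCN 1 and KPPCN 2. Spink1, the trypsin inhibitor of pancreatic juice, was listed in the KPPCN libraries alone, at 3069 and 3981 CPM, as was Zg16 of the granule, at 9139.6 and 2353 CPM. Tff2, a trefoil peptide, was at 1567, 924, 1176, 2552 and 2100.2 CPM. H2 was lowest for Gp2 and Dmbt1, as it was for Ctrb1.

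Where listed, RNA of the acinar transcription factors other than Xbp1 was scarce. Nr5a2 was at 102, 186, 104, 0 and 81.1 CPM, carried by 13 of 26 members of C3, 4 of 5 of D3, 40 of 65 of H2, 0 of 15 of KPPCN 1 and 2 of 13 of KPPCN 2. In the other cells Nr5a2 was at 2.88, 2.73, 4.43, 0.106 and 0.488 CPM. Gata4 was at 36.6, 34.5, 28.0, 0 and 71.6 CPM, and Xbp1, a driver of secretory capacity and the unfolded protein response, at 679, 972, 776, 150.1 and 453 CPM. KPPCN 1 was lowest for all 3. Ptf1a, Rbpjl and Bhlha15 were listed in KPPCN libraries alone, where KPPCN 2 gave 4, 25 and 4 UMIs of them and KPPCN 1 gave 2 of Rbpjl. The summed members of KPPCN 1 held 59959 UMIs, so a factor at the level of Nr5a2 in KPPC could give few UMIs there.

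The Reg family was among the most abundant RNA outside the rule. Reg1 was at 37144, 35108, 28710, 28719.6 and 34806 CPM and Reg3b at 24604, 14894, 28326, 15694 and 30682 CPM. Reg2 was at 11857, 10584, 14493 and 16324 CPM without D3, and Reg3g at 1421, 986, 1709, 1851 and 3394 CPM. Reg3a and Reg3d were listed in KPPCN alone, at 2618 and 4859 and 500.3 and 406 CPM. The listed Reg genes made up 7.50, 5.10, 6.93, 6.39 and 9.05% of member UMIs, and the genotypes overlapped. In the other cells Reg1 was at 423, 679, 681, 29.2 and 22.6 CPM, lowest in the KPPCN libraries.

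RNA of genes on the ductal lists stood beside zymogen RNA in the same cells, though not all of these genes are particular to ducts. Clu was at 26428, 24515, 30364, 984 and 12549 CPM, and reached 100 per 10000 in 22 of 26 members of C3, 4 of 5 of D3, 61 of 65 of H2, 0 of 15 of KPPCN 1 and 9 of 13 of KPPCN 2. Krt8 and Krt18, keratins of simple epithelia and not of ducts alone, were at 1561, 2371, 3336, 317 and 1814 CPM and 1893, 2295, 3574, 200.1 and 1112 CPM. Krt19, the duct keratin, was at 601, 338, 1055, 50.03 and 167 CPM and Spp1, osteopontin, at 4398, 3039, 5331, 217 and 1217 CPM. The epithelial adhesion gene Epcam was at 662, 606, 678, 16.7 and 434 CPM, the tight junction gene Cldn4 at 255, 1234, 755, 0 and 587 CPM and the duct factor Sox9 at 228, 255, 147, 16.7 and 239 CPM. KPPCN 1 was the lowest library for each of these 8 genes, and its members were also the shallowest. In members thinned to 1000 UMIs, a UMI of any of 9 ductal markers remained in 24 of 26 of C3, 5 of 5 of D3, 63 of 65 of H2, 6 of 13 of KPPCN 1 and 12 of 13 of KPPCN 2. The exact 95% binomial interval of that share was 19.2 to 74.9% in KPPCN 1 and 89.3 to 99.6% in H2. The 9 markers include Krt8 and Krt18, so these shares do not measure duct RNA alone. The part of doublets and of free RNA in the ductal RNA of members was not tested. The 9 ductal markers summed to 62.8, 79.9, 111, 8.01 and 48.8 UMIs per 10000 in members and to 47.2, 70.8, 74.7, 21.6 and 15.5 in the other cells.

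In H2 and C3, the libraries with 20 or more members, zymogen RNA and keratin RNA ran in opposite directions across members, while Reg RNA ran with zymogens. Values here are per 10000 UMIs outside the 6 rule genes, a total that still holds the UMIs of other enzyme genes and of Reg genes. In H2, 29 members had an acinar sum under 1000, 22 between 1000 and 2000 and 14 above 2000. The medians of Krt19, Krt7 and Epcam together in these 3 ranges were 33.01, 20 and 5.32, and those of Krt8 and Krt18 together 95.3, 60.6 and 25.4. Reg1, Reg3b and Reg3g together had medians of 266, 1084 and 2005, and Dmbt1 of 5.06, 13.6 and 56.1. Clu did not follow either direction, with medians of 319.6, 345 and 319. Over the 65 members of H2, Spearman's rho with the acinar sum was -0.69 for Krt19, Krt7 and Epcam, -0.56 for Krt8 and Krt18, 0.79 for the Reg sum, 0.57 for Dmbt1 and -0.04 for Clu. These cells share 1 library, and the acinar sum also had a rho of -0.39 with UMIs and -0.59 with genes per member. In C3, over 26 members and with a rho of 0.01 with UMIs, the values were -0.44, -0.25, 0.63, 0.45 and -0.14. The directions for the keratins, Reg and Dmbt1 were those of H2, though the medians of Krt8 and Krt18 in the 3 ranges of C3 were 45.7, 50.01 and 21.6, with no decline from the first range to the next. The libraries with fewer members did not all follow. Krt8 and Krt18 had medians of 0, 3.81 and 8.76 in KPPCN 1 (over 3, 1 and 11 members), the opposite order, 85.7, 27.3 and 53.3 in D3 (over 1, 1 and 3 members) and 108, 17.6 and 16.8 in KPPCN 2 (over 4, 3 and 6 members). The part of depth in these values was not tested.

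**Figure D3:**
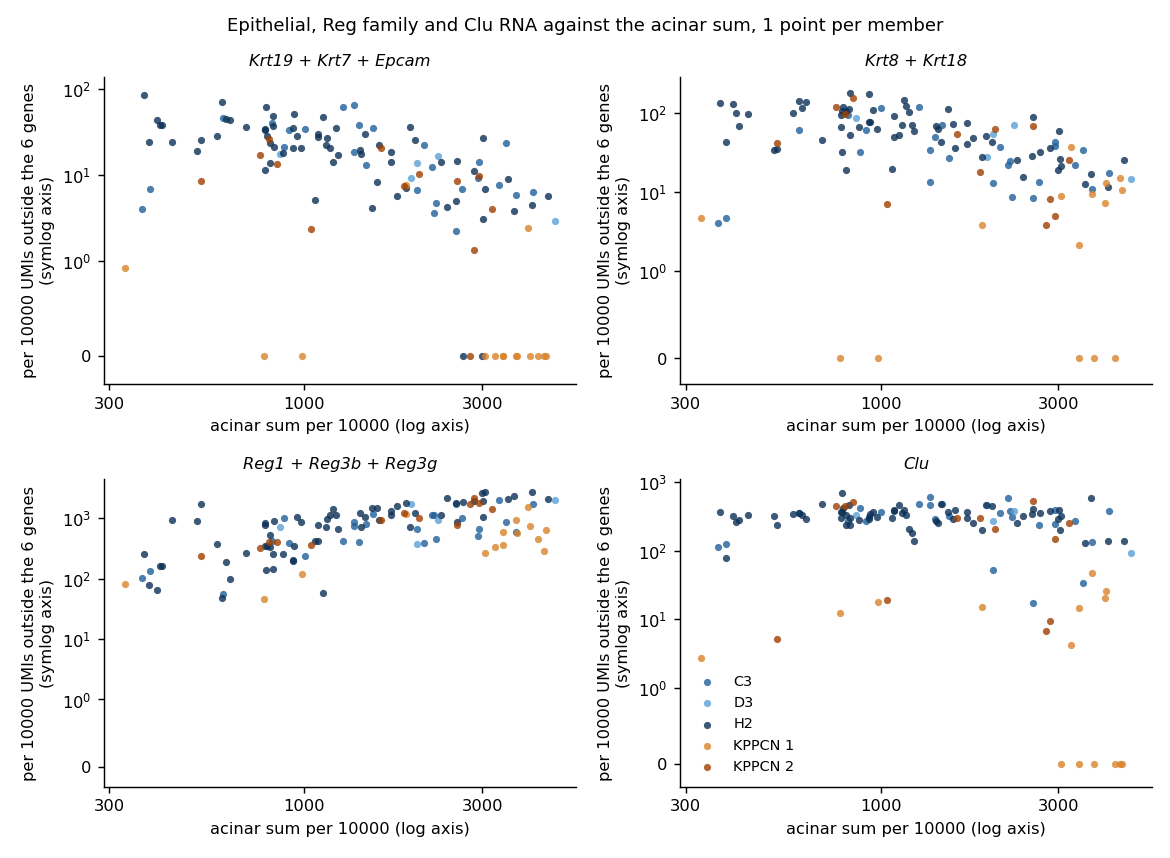
Each point is 1 member, coloured by library; the x axis is the acinar sum per 10000 UMIs (log axis) and the y axis the named genes per 10000 UMIs outside the 6 rule genes (symlog axis). In H2 the median of Krt19, Krt7 and Epcam is 33.01 below an acinar sum of 1000 and 5.32 above 2000, and that of Clu 319.6 and 319.

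Of the gastric-type markers, Gkn3 marked some members. Gkn3, a gastrokine of the stomach lining, was at 6035, 1992, 1261, 0 and 5103 CPM. It reached 10 per 10000 in 14 of 26 members of C3, 2 of 5 of D3, 22 of 65 of H2, 0 of 15 of KPPCN 1 and 3 of 13 of KPPCN 2. The list did not move as a whole. Gkn1 was at 13.6, 117, 49.2, 16.7 and 0 CPM in members, against 159, 349, 307, 93.6 and 2.18 CPM in the other cells. Tff1 was lower in members than in the other cells in all libraries but KPPCN 2. Gkn3 and Ctse were higher in members in all libraries but KPPCN 1. The 9 gastric-type markers together had medians of 33.5, 19.1, 12.1, 0 and 0.415 per 10000 and highest members of 223, 77.2, 330.3, 3.10 and 169. In KPPCN 2 the sum thus came from few members, since its median was near 0.

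RNA of other classes was low in most members. The 12 endocrine markers, of which KPPC libraries list 5, summed to 0.597, 0.551, 0.349, 0 and 0.239 UMIs per 10000. The 8 fibroblast markers had medians of 7.22, 3.87, 2.18, 9.28 and 2.96, and reached 100 or more in 2 members of C3 and 1 of KPPCN 1, with highest members of 195 and 214. Macrophage markers summed to at most 0.167 and endothelial markers to at most 0.258 per 10000. Blood classes could be read in part only, since D3 and H2 list 0 of 6 neutrophil markers, D3 0 of 5 and H2 2 of 5 erythroid markers, and the KPPC libraries 1 or 2 of 8 T and NK or B and plasma markers and 3 or 4 of 8 macrophage markers. In KPPCN 1, which lists all of them, erythroid markers were carried by every member, at a median of 22.7 per 10000, against a sum of 263 in its other cells, and B and plasma cell markers had a median of 8.90. Over the markers each library lists, acinar, ductal, gastric-type and fibroblast were the only classes that reached 100 per 10000 in a member.

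Zymogen RNA was also found in cells that were not members, at far lower levels. A Ctrb1 UMI was present in 48.1, 16.3, 44.5, 28.1 and 36.4% of the other cells, at median depths of 17344, 19058, 18010.5, 2006 and 20925 UMIs. Among fibroblast-marker cells, which should not make Ctrb1, the shares were 49.4, 14.3, 42.0, 34.0 and 34.1%, at median depths of 17708, 18043, 17967, 4193 and 20380 UMIs. A Ctrb1 UMI alone was therefore not read as expression. The level of Ctrb1 was 42.3, 8.46, 33.5, 79.9 and 23.3 CPM in the fibroblast-marker cells and 60.5, 29.7, 168, 86.0 and 48.2 CPM in all other cells. It was higher over all other cells in each library, most in H2 and D3, so part of their Ctrb1 RNA lay above the level of fibroblast-marker cells. Members held 95.3, 90.3, 94.1, 79.2 and 88.6% of all Ctrb1 UMIs of their libraries, and the 99th percentile of the acinar sum in the other cells was 8.67, 7.99, 29.1, 35.6 and 6.27 per 10000.

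The genes richest in members, outside the rule, were named from C3 and H2, the libraries with 20 or more members. Of 1731 genes of at least 50 CPM in both, 103 (5.95%) were at least 2-fold and 20 (1.16%) at least 10-fold above the other cells in both. The members were chosen on this contrast, so nothing is read from these shares. By the lower of both ratios the first 15 were Pnliprp1 (1589-fold), Reg2 (722-fold), Clps (698-fold), Rnase1 (638-fold), Try5 (513-fold), Cel (283-fold), Gp2 (114-fold), Pnliprp2 (68.0-fold), Reg3b (56.1-fold), Reg1 (42.2-fold), Cpn1 (39.1-fold), Cela1 (31.4-fold), Reg3g (27.3-fold), Mia (26.7-fold) and Noxa1 (23.9-fold). All but Cpn1, a subunit of plasma carboxypeptidase N, Mia and Noxa1, an activator of NADPH oxidase, belong to the acinar or Reg lists. Noxa1 was at 70.5, 96.5, 79.0, 0 and 85.9 CPM and Mia at 205, 103, 106, 33.4 and 76.4 CPM in members.

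Whether members of KPPCN tumours differed from those of KPPC tumours was asked gene by gene, on UMIs summed over the members of C3, H2, KPPCN 1 and KPPCN 2. D3, with 5 members, was left out. limma found 0 of 4354 genes at a Benjamini-Hochberg adjusted p under 0.05, 0% in each direction, and 286 at an unadjusted p under 0.05. The lowest adjusted p was 0.708. Without C3 18 genes passed, without KPPCN 1 30 and without KPPCN 2 38, each with 1 library left in a genotype and its spread taken from the other, and without H2 0 passed. Both KPPCN libraries lay above both KPPC libraries in 10.8% of the genes and below in 34.8%, and the median log2 difference over all genes was -0.30. With totals that left out enzyme, granule and Reg genes (the other totals), the shares were 24.1 and 18.8% and the median 0.03. Counts of lists are read against these backgrounds.

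Most ductal genes lay lower in the KPPCN members and none passed the test. Of 12 ductal and metaplasia genes, 9 lay below in both KPPCN libraries and 0 above, with a median log2 difference of -2.26; with the other totals 9 lay below and the median was -1.61. Krt19 had a log2 difference of -2.80 (SE 0.51) and Clu of -2.88 (SE 1.04), with limma adjusted p-values of 0.708 and 0.708. Sox9, Krt8 and Cldn4 overlapped between the genotypes. KPPCN 1, the library with the shallowest members, was the lowest for Krt19 and Clu. The 9 ductal markers were also lower in the other cells of KPPCN 1 and KPPCN 2, at 21.6 and 15.5 per 10000, against 47.2 and 74.7 in C3 and H2. Krt19 was at 595, 918, 247 and 156 CPM in the other cells of C3, H2, KPPCN 1 and KPPCN 2. Whether the difference in ductal genes is particular to members was not tested.

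Enzyme genes lay higher in part. Of serine proteases, 2 of 5 lay above and 0 below (median 0.59), and with the other totals 4 of 5 above and 0 below (median 0.96). Of lipases, 2 of 4 lay above and 0 below (median 1.07), and with the other totals 2 of 4 above and 0 below (median 1.36). Above on the first totals were Cela1, Cela3b, Clps and Cel, whereas Ctrb1 had a log2 difference of 0.32 (SE 0.51), Prss2 of 0.59 (SE 0.43) and Cpa1 of 1.06 (SE 0.62), with overlap. Cela3b had 1.93 (SE 0.82) on the log2(CPM + 5) scale. Ctrb1, Prss2, Cpa1 and Cela3b chose the members, so their levels within members depend on the minimum. Of carboxypeptidases and of nucleases 1 gene each was tested, Cpa1 and Rnase1, and both overlapped. Of granule genes, 2 of 3 lay above and 0 below (median 0.77), and with the other totals 2 of 3 above and 0 below (median 1.10), those above being Dmbt1 and Tff2. D3, which was left out of these counts, held more Dmbt1 than either KPPCN library. Of Reg genes, 2 of 4 lay above and 0 below (median 0.32), and with the other totals 2 of 4 above and 0 below (median 0.68), those above being Reg2 and Reg3g. Reg2 had a log2 difference of 0.57 (SE 0.32), Reg3g of 0.81 (SE 0.34) and Reg1 of 0.06 (SE 0.34). Of acinar transcription factors, 0 of 3 lay above and 2 below (median -1.23), and with the other totals 0 of 3 above and 2 below (median -0.77), those below being Nr5a2 and Xbp1.

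Of the genes with the largest differences without overlap, 15 were read in CPM on totals scaled by trimmed means, in the order C3, H2, KPPCN 1 and KPPCN 2. Cdkn2a, the locus of the cell cycle inhibitors p16 and p19ARF, was at 12.0, 10.5, 62.2 and 135 CPM, on 8, 18, 3 and 29 UMIs, and 1 member gave 62.1% of those of KPPCN 2. In the other cells, with no scaling, Cdkn2a was at 272, 141, 253 and 826 CPM, also highest in KPPCN 2. It is 1 of 7 markers of dedifferentiated tumour cells, which summed to 1.38, 1.10, 4.67 and 7.11 UMIs per 10000 in members and 32.6, 24.2, 28.5 and 65.4 in the other cells. Of the 7, only Cdkn2a itself and Vim were tested, and both lay above. For Vim, 1 member gave 80% of the UMIs of KPPCN 1 and 1 member 69.8% of those of KPPCN 2. The part of dedifferentiated tumour cells in the Cdkn2a values was not tested. Cela1 was at 993, 897, 15953 and 2502 CPM and Clps at 9120.3, 3262, 46966 and 21072 CPM, each carried by 10 or more members of either KPPCN library, but 1 member of KPPCN 2 gave 58.7% of the Cela1 and 54.0% of the Clps UMIs there. The other genes that lay higher in KPPCN were Serpinf1, Nt5dc2, Emb and Fxyd1. A single member gave 95.5% of the Serpinf1 UMIs and all 6 Nt5dc2 UMIs of KPPCN 1, so both levels rest mostly on 1 cell there.

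On the lower side, Tm4sf4, a tetraspanin-like membrane protein, was at 89.8, 145, 0 and 4.65 CPM, and Onecut2, a factor of the duct lineage, at 181, 241, 0 and 41.8 CPM. Krt7, a duct keratin, was at 557, 818, 20.7 and 153 CPM and Spp1 at 4857, 5015, 269.7 and 1186 CPM. Aqp5, a water channel, was at 256, 43.3, 0 and 13.9 CPM, and the trefoil gene Tff1 at 82.3, 589, 20.7 and 27.9 CPM. Ctsh, a lysosomal cathepsin, and Tax1bp3 were the others. In D3, left out of the fit, Aqp5 was at 13.8 and Ctsh at 55.1 CPM with no scaling. On that scale Aqp5 was at 14.3 CPM in KPPCN 2 and Ctsh at 66.7 CPM in KPPCN 1. Both genes therefore overlapped once D3 was read. In KPPCN 2 a single member gave 66.7% of the Krt7 UMIs, 76.1% of the Spp1 UMIs and all 9 Onecut2 UMIs. In KPPCN 1, 0 UMIs were found of Tm4sf4, Onecut2, Tax1bp3 and Aqp5 among 51815 UMIs, against 1603960 UMIs summed in H2. The log2 differences of the 15 genes ran from 2.85 for Cdkn2a to -3.90 for Tm4sf4, and each limma adjusted p was 0.708. In the other cells, with no scaling, Tm4sf4 was at 66.7, 73.5, 8.81 and 4.80 CPM, and Onecut2 at 161, 252, 59.1 and 21.6 CPM. Krt7 was at 553, 999, 152 and 44.8 CPM there. Each of the 8 genes on the lower side was also lower in the other cells of both KPPCN libraries than in those of C3 and H2. Whether the differences are particular to members was not tested.

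**Figure D4:**
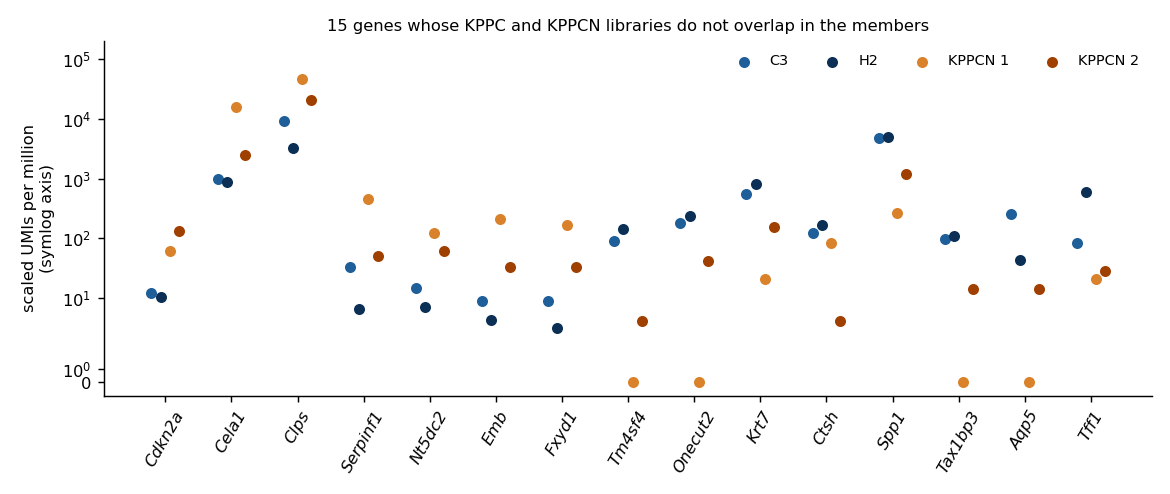
CPM of the summed members on totals scaled by trimmed means (symlog axis) for 7 of the genes that lie highest and the 8 that lie lowest in KPPCN among genes whose libraries without D3 do not overlap. Points are the libraries C3, H2, KPPCN 1 and KPPCN 2. Cela1 lies at 993, 897, 15953 and 2502 and Tm4sf4 at 89.8, 145, 0 and 4.65; no gene passed the test.

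Because Nsdhl acts in cholesterol synthesis, 25 genes of cholesterol synthesis and uptake were read in members. They summed to 4.38, 3.17, 9.83, 2.17 and 26.9 UMIs per 10000. KPPCN 2 was highest and KPPCN 1 lowest, so the genotypes overlapped. In KPPCN 2 a single member with 56136 UMIs and an acinar sum of 529 gave 68.7% of these UMIs, at 68.9 per 10000. The medians over members were 2.40, 1.83, 4.90, 0 and 4.93. Of the genes tested, 1 of 17 lay above and 1 below (median 0.80), and with the other totals 7 of 19 above and 1 below (median 1.38). KPPCN 1 gave 13 UMIs over all 25 genes, so the place of a gene there can turn on 1 UMI. A rise of the list in KPPCN is therefore not read from these counts and medians. Fdps, farnesyl diphosphate synthase, was at 44.7, 0, 167, 33.4 and 387 CPM, and Cyp51, lanosterol demethylase, at 16.3, 6.89, 49.8, 16.7 and 410.5 CPM. Both were highest in KPPCN 2, where 6 of 13 members carried Fdps and 2 of 13 Cyp51. Nsdhl had 12, 3, 44, 0 and 22 UMIs, and in KPPCN 2 1 member gave 81.8% of them. Which part of Nsdhl was deleted is not given in the sources used here, and 3′ UMIs need not cover it, so they do not check the genotype of the members.

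**Figure D5:**
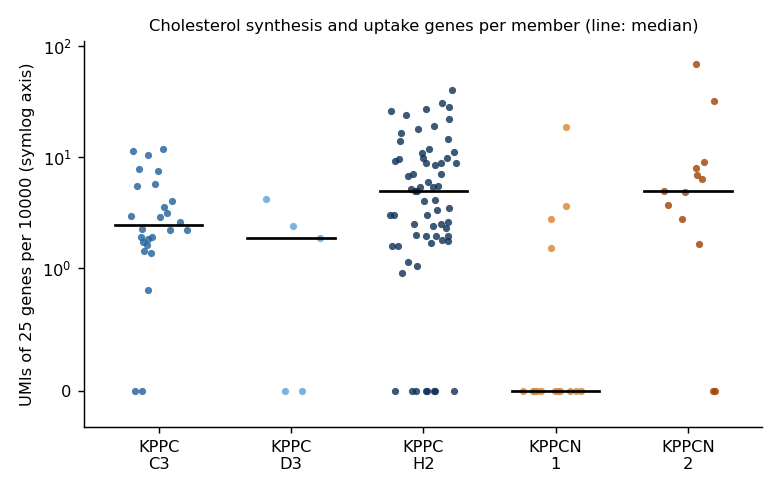
Summed UMIs of 25 cholesterol synthesis and uptake genes per 10000 UMIs in each member (symlog axis), by library, with the median as a line. Medians are 2.40, 1.83, 4.90, 0 and 4.93 from left to right, and 1 member of KPPCN 2 lies at 68.9.

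The remaining lists were compared in the same way, and no gene of them passed the test. Of secretory pathway and unfolded protein response genes, 2 of 19 lay above and 0 below (median 0.20), and with the other totals 7 of 20 above and 0 below (median 0.53). Hspa5, the chaperone BiP, was at 708, 1048, 439, 450.3 and 907 CPM. Of TGFb genes, 3 of 13 lay above and 2 below (median -0.20), and with the other totals 3 of 14 above and 1 below (median 0.12), and Pmepa1, a target of the pathway, was at 277, 317, 255, 617 and 334 CPM. Of immediate early genes, which respond to stress and dissociation, 0 of 12 lay above and 1 below (median -0.51), and with the other totals 0 of 12 above and 0 below (median -0.07). Jun was at 893, 3301, 1130.2, 450.3 and 1394 CPM, highest in the 5 members of D3 and lowest in KPPCN 1. Of proliferation genes, 2 of 8 lay above and 0 below (median 0.48), and with the other totals 8 of 12 above and 0 below (median 1.45). Tubb5 was at 320.0, 331, 648, 183 and 492 CPM, and Mki67, a marker of dividing cells, was found in 2, 0, 5, 1 and 2 members.

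Malat1, a nuclear RNA, was low in many members. It was under 20 per 10000 in 7 of 26 members of C3, 0 of 5 of D3, 24 of 65 of H2, 8 of 15 of KPPCN 1 and 9 of 13 of KPPCN 2. Among the other cells the shares under 20 were 6.05, 1.86, 4.61, 5.31 and 17.8%. In H2 the median of Malat1 per 10000 UMIs outside the rule genes was 161 in members with an acinar sum under 1000 and 5.66 above 2000. The members of H2 with the most zymogen RNA also held fewer genes, with a median of 1320 against 5216. The part of cell quality in the values of these members was not tested.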

How the data were processed

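Droplet 3′ RNA libraries of 3 KPPC and 2 KPPCN tumours were used; the labels speak of 3 mice per genotype, and a further KPPCN library was not analysed here. Per the submitters' processing notes, Seurat 3.0.2, R 3.5.1, Cell Ranger 2.1.0 and GRCm38 were used, with no role given. The values deposited by the authors are the natural log of 1 plus UMIs per 10000, in tables of 12579 (KPPC) and 31053 (KPPCN) genes. UMIs were recovered from each cell's smallest step, 100% whole within 0.01. The codes C3, D3 and H2 match no single sample label, so these libraries carry a genotype and no replicate number. 0 columns were left out.

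The members and gene lists were chosen with earlier results of these data known. No doublet caller was run. Shares were compared by exact permutation over libraries. The plan asked for 20 members per library in 2 libraries per genotype, which only C3 and H2 met, and otherwise for no test; the listed alternative of 10 members is reported. Genes listed in all libraries compared, with 15 UMIs in all and 10 at the median total, were fitted with limma 3.58.1 with trend on log2(CPM + 5), on totals scaled by trimmed means, with Benjamini-Hochberg adjustment over all genes tested. Precision weights used the counting variance at the gene's mean level; a first form used each library's own value and was replaced after its results were seen. On simulated data of this comparison (4384 genes), 1 of 4184 unchanged genes was called, and 2.94, 51.5 and 77.3% of genes changed by a log2 of 1, 2 and 3. The simulation gave every gene the same fixed dispersion and no spread between single members. These rates therefore need not hold for the real sums, in which 1 member can give most of a gene's UMIs. P-values measure the spread between these libraries. Named were the rule genes, up to 6 genes of each list by mean CPM, the 15 genes with the highest lower ratio to other cells, and 8 genes per direction with the largest difference among those of mean 50 CPM or more without overlap. Krt19, Krt7, Sox9, Gkn3, Malat1, Mki67, Nsdhl, Amy2a5 and Reg3d were also named, after their values were seen where the rule does not cover them. Promoters are from RefSeq (GRCm38.p6). 1 named gene and an allele of the mouse model are not reported here.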

Additional observations from a re-analysis of the deposited data

How the results depend on the processing

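The share of members in KPPCN minus that in KPPC was negative under 10 alternatives, from -0.380 to -1.20 percentage points. No setting can bring its p under 0.05 with so few libraries. Leaving out 1 library gave -1.20 to 0.0140 points, and the positive value came without H2. For gene levels, limma called 0 genes with a pseudocount of 1, no filter, plain totals, totals without enzyme, granule and Reg genes, no weights or thinned sums. It also called 0 with D3 added, or without members of 50 or more fibroblast-marker UMIs per 10000 with and without weights, settings chosen after seeing the data. It called 31 (14 higher, 17 lower) with members of at least 500 genes and 109 (8 higher, 101 lower) with an acinar sum of at least 1000; each left 1 KPPCN library, assumed to vary like the others. With weights from each library's own value, the form that was replaced, it called 82 (67 higher, 15 lower). Leaving out 1 library gave 0 to 38. Of 234 values of named genes under these settings, 189 kept direction and side of the threshold, 44 kept direction and passed it, and 1 changed sign: Ctsh was at 0.19 with an acinar sum of at least 1000. The causes were not tested. No paired analysis was possible because the KPPC libraries carry codes and no replicate numbers. The labels also name no pairs of mice between the genotypes, so replicate numbers alone would not have made pairs. The 59959 UMIs of the members of KPPCN 1 limit the comparison between genotypes.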
